A study of Monodelphis domestica with 25 samples.

Results

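The subject is a set of 7 transcripts of Monodelphis domestica, the gray short-tailed opossum, selected on their higher level in blood cultures with perfluorooctanoic acid (PFOA) than in control cultures. They are ENSMODT00000037070, ENSMODT00000008502, ENSMODT00000002761, ENSMODT00000040011, ENSMODT00000014456, ENSMODT00000022153 and ENSMODT00000027014, out of 22059 features counted. The files give them by identifier only. None of the 7 (0 matches) occurred in the RefSeq gene table used here (assembly mMonDom1.pri), so no gene name, position, sequence or function is given for them. For the same reason the blood label was not checked against cell type markers.

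The treatment experiment held 10 libraries of whole blood of the LSD strain, diluted in culture medium. There were 2 control libraries at 12 h and 2 at 24 h. PFOA was present at 400 µM or 800 µM, with 1 library for each dose and time. GenX was present at 1200 µM in 2 libraries, at 12 h only. The solvent was dimethyl sulfoxide, which the labels' protocols place in every culture, yet the controls are labelled untreated, so their solvent content is uncertain. The titles say low and high, and these words were read as the smaller and the larger concentration in the protocol. Each of the 10 titles holds A9394 and a number from R1 to R4. Both PFOA libraries at 12 h are R2 and both at 24 h are R1. What the numbers mean (animals, wells or pools) is not stated, so p-values here reflect only how far these cultures vary, possibly for technical reasons. Untreated blood was followed separately in 15 libraries, 3 at each of 0, 12, 24, 48 and 72 h, which carry A0036, A0039 or A3538 in their titles. The age of the animals was not given in the sources used here.

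PFOA is a fully fluorinated fatty acid analog that persists in the environment and in the body. GenX is the ammonium salt of a fluorinated ether acid that was made to replace it. In rodent liver, PFOA is known as an activator of the nuclear receptor PPAR alpha, which turns on genes of fatty acid breakdown. Whole blood holds red cells, platelets and the white cells of the immune system, and a bulk library mixes the RNA of all of them.

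Library totals bear on every level given here. They ran from 4487453 to 11685427 counts in the controls and were 3654215 and 6433771 with GenX. With PFOA they were 4027470 (400 µM) and 2412085 (800 µM) at 12 h, and 754708 and 366269 at 24 h. The 10 most abundant transcripts held 4.61% to 5.17% of the counts in controls and 5.82% to 19.0% with PFOA, the highest share being in the 24 h, 800 µM library. Levels are CPM, the counts of a transcript relative to its library's total, with TMM scaling, a scaling to a common library size that is less affected by a few very abundant transcripts. A floor of detection of 3 counts was worth 0.239 to 0.613 CPM in controls and 0.723 to 9.52 CPM with PFOA. Levels are not compared between transcripts, because transcript lengths were not used here.

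All 7 transcripts stood higher in both PFOA libraries than in both controls, at 12 h and again at 24 h. Such separation at both times was found for 7.89% of the 12565 transcripts tested. These are the values that the set was chosen on, so they are a description and carry no test. The fitted log2 difference between PFOA and control, adjusted for time, ran from 1.91 to 3.35 with a median of 2.30, against a median of -0.04 over all transcripts tested. The 7 are the 7 transcripts called higher (0.0557% of those tested, edgeR's quasi-likelihood test, Benjamini-Hochberg adjusted p under 0.05), which is the choice itself. The samples are bulk blood, in which fewer cells of a type and less RNA per cell cannot be told apart.

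ENSMODT00000027014 was the member with the most counts. It stood at 326 and 191 CPM in the 12 h controls, at 491 (400 µM) and 1069 CPM (800 µM) with PFOA at 12 h, at 639 and 498 CPM in the 24 h controls, and at 2797 and 6360 CPM with PFOA at 24 h. The 400 µM library at 12 h lay below both 24 h controls, so the groups separate within a time and overlap across times. Its fitted difference was 2.30 (SE 0.396).

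ENSMODT00000002761 had 61.7 and 41.2 CPM in the 12 h controls and 91.8 and 233 CPM with 400 and 800 µM PFOA. At 24 h it had 95.2 and 80.0 CPM in the controls and 595 and 822 CPM with PFOA, a fitted difference of 2.33 (SE 0.356). Here too the library at 400 µM and 12 h overlapped the controls of 24 h, and the other 3 PFOA libraries lay above all 4 controls. ENSMODT00000008502 followed a like order, with 57.1 and 39.5 CPM in 12 h controls, 101 and 186 CPM with PFOA at 12 h, 129 and 72.2 CPM in 24 h controls, and 539 and 1142 CPM with PFOA at 24 h. Its fitted difference was 2.31 (SE 0.384).

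ENSMODT00000040011 stood at 44.0 and 22.3 CPM in 12 h controls against 60.7 and 132 CPM with 400 and 800 µM PFOA. At 24 h the controls had 75.2 and 80.0 CPM and the PFOA libraries 347 and 542 CPM (fitted difference 2.02, SE 0.341). ENSMODT00000037070 had 19.7 and 28.0 CPM in 12 h controls, 48.5 and 93.2 CPM with PFOA at 12 h, 29.8 and 50.9 CPM in 24 h controls, and 117 and 289 CPM with PFOA at 24 h (fitted difference 1.91, SE 0.327). In both transcripts the 400 µM library at 12 h was the only PFOA library within the range of all controls.

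The remaining 2 members differed from this picture in the way time entered. ENSMODT00000014456 was scarce, with 2 and 5 counts (0.226 and 0.398 CPM) in the 12 h controls and 11 and 14 counts (2.65 and 6.10 CPM) with 400 and 800 µM PFOA. At 24 h it had 36 and 28 counts (7.36 and 5.08 CPM) in controls and 33 and 24 counts (41.2 and 76.1 CPM) with PFOA. Its fitted difference was the largest of the 7, 3.35, and its SE of 0.586 was too.

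ENSMODT00000022153 was the one member that stood higher at 12 h than at 24 h in every group that has both times. It had 34.4 and 38.4 CPM in 12 h controls and 129 and 230 CPM with 400 and 800 µM PFOA. At 24 h it had 5.52 and 9.61 CPM in controls and 17.5 and 25.4 CPM with PFOA, the latter from 14 and 8 counts. Its 24 h PFOA levels were thus below its 12 h control levels, and the fitted difference was 1.99 (SE 0.305).

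**Figure D1:**
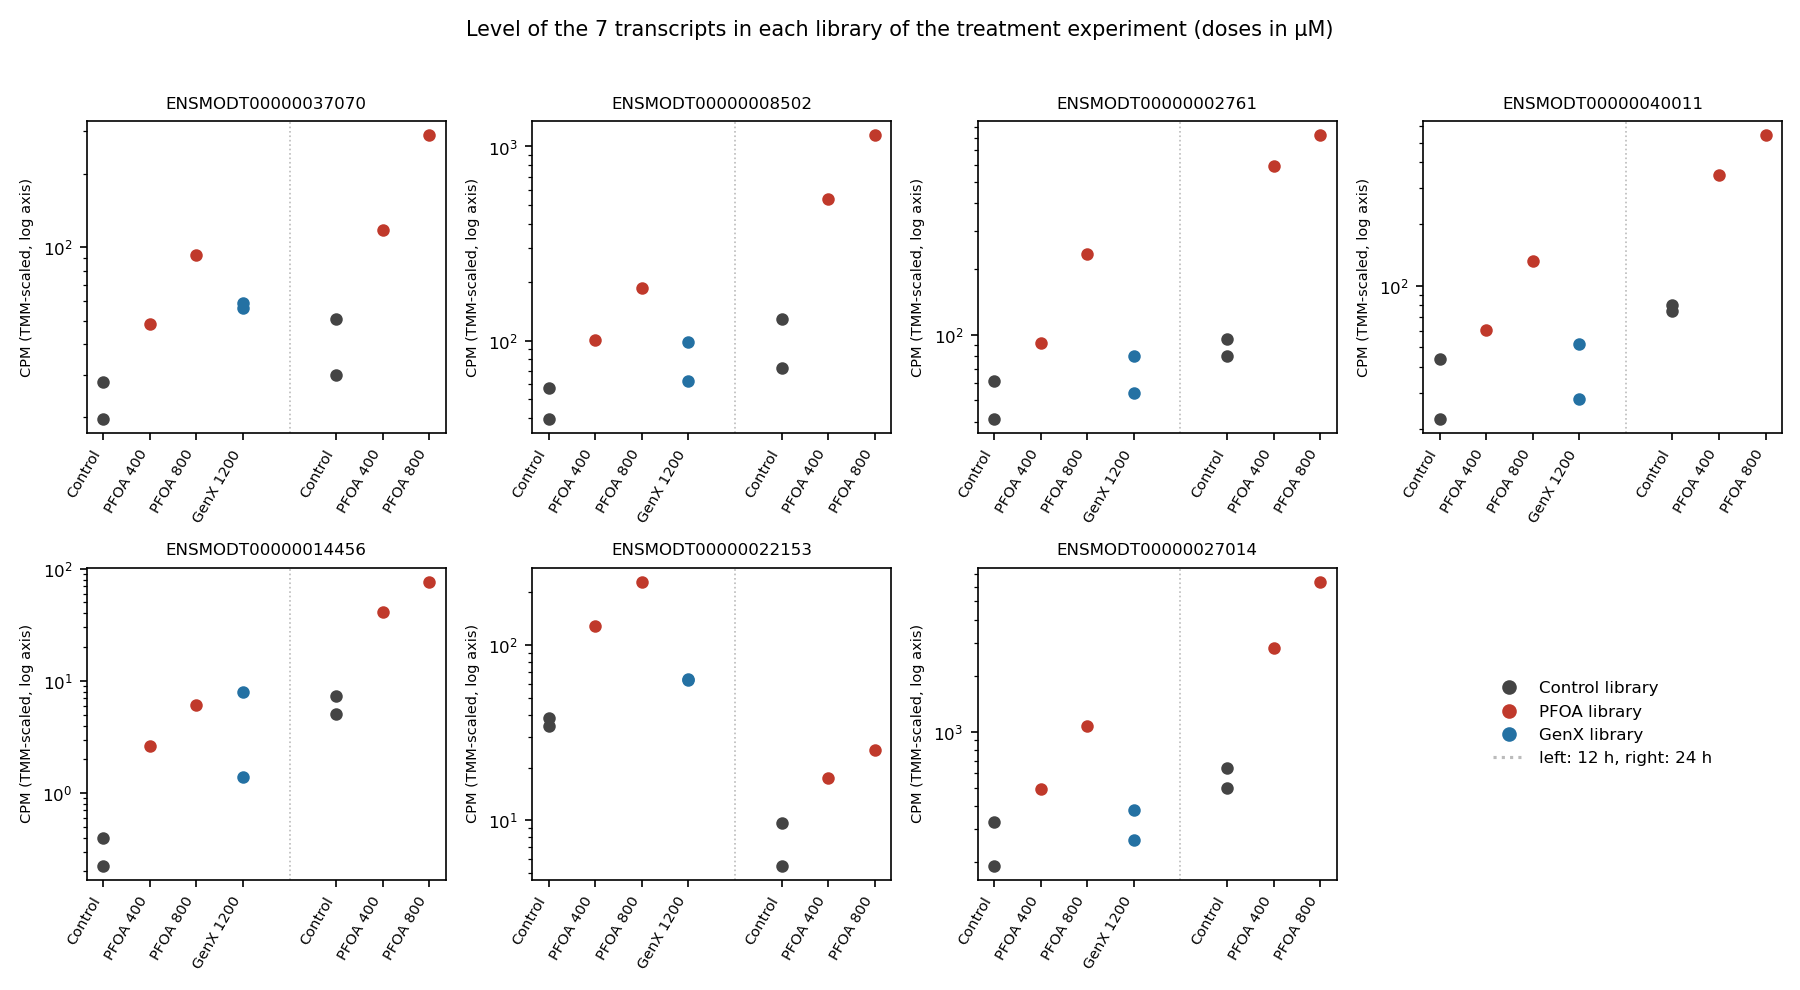
Level of each of the 7 transcripts (TMM-scaled CPM, log axis) in the 10 treatment libraries, 1 point per library, with 12 h to the left and 24 h to the right of the dotted line. Both PFOA points lie above both control points at each time in all 7 panels, and ENSMODT00000022153 alone is lower at 24 h than at 12 h.

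The last member in the order of the fit was ENSMODT00000014456. Just outside stood ENSMODT00000006566, with a fitted difference of 3.93 (SE 0.695). It had 0.338 and 0.319 CPM in 12 h controls, 2.66 and 1.99 CPM in 24 h controls, 2.65 and 5.23 CPM with PFOA at 12 h, and 18.7 and 76.1 CPM at 24 h. The step between inside and outside is therefore not one of size.

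The raw counts behind these levels showed a different pattern from the levels. While library totals spanned 31.9-fold, the counts of ENSMODT00000002761 ran only from 259 to 547 over all 10 libraries, a 2.11-fold range. This was the narrowest range of all 12565 transcripts tested, whose median was 50.4-fold with a lowest count of 0 taken as 1. ENSMODT00000027014 ran from 1250 to 3126 counts (2.50-fold, the 9th narrowest), ENSMODT00000040011 from 171 to 441 (2.58-fold, the 11th) and ENSMODT00000008502 from 203 to 633 (3.12-fold, the 22nd). ENSMODT00000037070 ran from 91 to 379 counts (4.16-fold, the 64th). These 5 transcripts thus had nearly even counts in libraries of very different size. ENSMODT00000014456 (18-fold) and ENSMODT00000022153 (66.8-fold) did not share this. A choice on higher CPM in the smaller libraries favours transcripts whose counts do not follow the total, so these ranges are a description of the choice and not support for it.

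Set against the mean of the same-time controls, the median raw count of the 7 was 0.771 times the control at 400 µM and 12 h, where the library total was 0.391 times that of the controls. At 800 µM and 12 h the members' median was 0.928 times and the total 0.234 times. At 24 h the members' median was 0.762 times and the total 0.154 times with 400 µM, and 0.571 and 0.0748 times with 800 µM. In that last library the median count over all transcripts tested was 0.0420 times that of the controls. The member counts were at or below the control mean in most of these pairs, and the levels were above it after division by the total. The corresponding median CPM ratios were 2.03, 4.14, 4.92 and 9.38. Together the 7 transcripts held 0.0388% to 0.107% of the counts in controls and 0.0952% to 0.797% with PFOA. Every PFOA library was smaller than every control, so PFOA and library total cannot be told apart here.

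**Figure D2:**
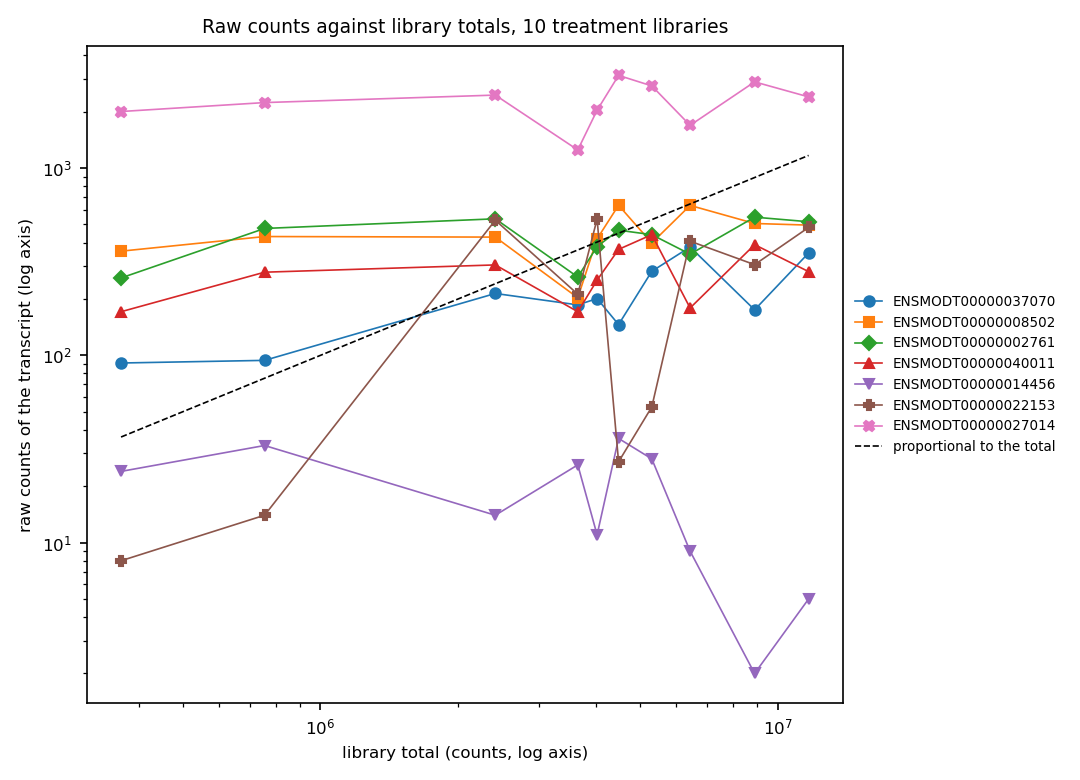
Raw counts of each of the 7 transcripts against the library total (both log axes), 1 point per treatment library joined in order of the total. The dashed line shows counts in proportion to the total; 5 transcripts stay within a 2.11- to 4.16-fold range while totals span 31.9-fold.

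The members' difference was present without the 24 h, 800 µM PFOA library, the smallest of all. With that library left out, the fitted log2 differences were 1.53 for ENSMODT00000037070, 1.91 for ENSMODT00000008502, 2.10 for ENSMODT00000002761 and 1.78 for ENSMODT00000040011. They were 3.17 for ENSMODT00000014456, 2.02 for ENSMODT00000022153 and 1.87 for ENSMODT00000027014. The median fell from 2.30 to 1.91, and ENSMODT00000022153 was the only member whose difference was not smaller. All 7 still passed the threshold that chose them, now among 92 called transcripts instead of 10. The median was 1.56 from 12 h libraries alone and 3.09 from 24 h libraries alone.

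Other libraries decided the calls more than that one. Shares of all transcripts tested that were called stand in brackets, against 0.0796% with all libraries. None of the 7 (0 members) passed without the R2 control at 12 h (0.00805%) or the R2 control at 24 h (0.0242%). Nor did any pass without the 12 h, 800 µM PFOA library (0.00798%). One member (1) passed without the R3 control at 24 h (0.0244%). Without the 24 h, 400 µM PFOA library 3 passed (0.0652%), and without the R1 control at 12 h 4 passed (0.0562%). Leaving out the GenX R4 library left 5 (0.0965%), and leaving out any of the 3 others left all 7 (0.238% to 0.747%). With RLE size factors 2 passed (0.0318%). All 7 passed by DESeq2 (5.84%) and by edgeR without a low-count filter (3.49%), where far more transcripts were called. None passed with the number R as a replicate block (0.00796%) or with all libraries thinned to the smallest total (0%). The direction did not depend on these choices: all 126 fitted differences, 7 members under 18 alternatives, were positive, between 1.22 and 3.64. Since the members were picked for this direction, that is no independent sign of stability.

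**Figure D3:**
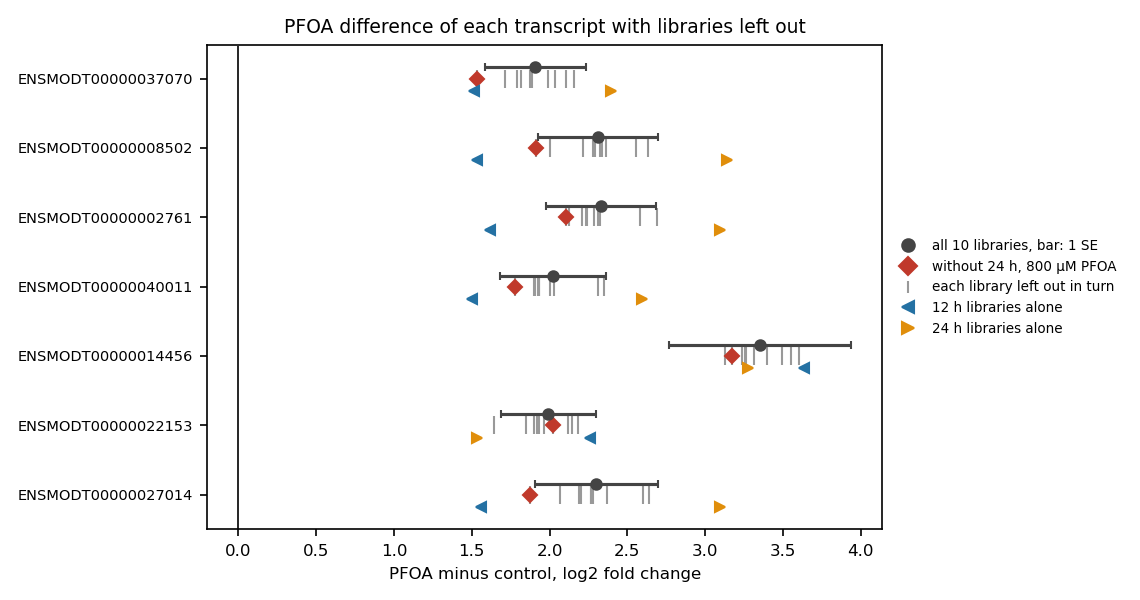
Fitted log2 difference between PFOA and control for each of the 7 transcripts (horizontal axis) with all 10 libraries (circle, bar 1 SE), without the 24 h, 800 µM PFOA library (red diamond), with each library left out in turn (grey ticks), and from 12 h or 24 h libraries alone (triangles). All values lie above 0; without the smallest library the 7 values lie between 1.53 and 3.17.

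The members were not chosen on their GenX levels. The GenX libraries were, however, part of the fit that called the members, through its filter, scaling and shared spread. They are also read against the same controls. At 12 h, ENSMODT00000037070 stood at 58.9 and 56.5 CPM with GenX, R3 and R4 in that order, against 19.7 and 28.0 CPM in controls. ENSMODT00000022153 stood at 63.2 and 64.4 CPM, ENSMODT00000008502 at 98.2 and 61.6 CPM, and ENSMODT00000014456 at 1.40 and 7.89 CPM. In these 4 of 7 members both GenX libraries lay above both 12 h controls, as they did for 19.9% of all transcripts tested. The other 3 overlapped the controls: ENSMODT00000002761 had 53.9 and 79.6 CPM, ENSMODT00000040011 had 27.8 and 51.9 CPM, and ENSMODT00000027014 had 263 and 380 CPM.

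No member was called between GenX and control (0 of 7, against 1 of 12565 transcripts or 0.00796%, by edgeR after Benjamini-Hochberg adjustment). The 7 adjusted p-values ran from 0.457 to 0.997. Before adjustment 3 members had a p under 0.05, as had 857 of the 12565 transcripts. Fitted log2 differences were positive for all 7 in this fit, from 0.48 to 3.51 with a median of 0.67, against -0.03 over all transcripts. The sign turned for ENSMODT00000022153 with the replicate block (0.65 to -0.15) and for ENSMODT00000040011 without the GenX R4 library (0.48 to -0.03). No other library is numbered R4, so with the replicate block the GenX difference rests on the GenX R3 library alone. ENSMODT00000014456 had the largest, 3.51 (SE 0.769), and ENSMODT00000037070 the next, 1.43 (SE 0.400). ENSMODT00000014456 was called by DESeq2 (adjusted p = 0.00615), which called 63 transcripts in all. It was also called by edgeR without the GenX R3 library (adjusted p = 0.0200), where 1 GenX library was left and 69 transcripts (0.514%) were called. GenX totals were 0.625 and 0.355 times the mean of the 12 h controls, and whether that shaped the differences was not tested. The 2 compounds were used at different concentrations, so their levels stand side by side here without a comparison.

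Within the PFOA libraries, all 7 members stood higher at 800 than at 400 µM at both times, as did 23.0% of all transcripts tested. The members were not chosen on dose, but they were chosen on high levels in these same PFOA libraries. The dose values are therefore not independent of the choice. The fitted log2 dose difference ran from 0.78 for ENSMODT00000022153 to 1.16 for ENSMODT00000027014 (SE 0.379 and 0.433), with a median of 1.01 against -0.06 over all transcripts. After thinning to the smallest total, that of ENSMODT00000014456 turned from 1.03 to -0.29. None was called (0 of 7, against 2 of 12565 or 0.0159%, edgeR with Benjamini-Hochberg adjustment, adjusted p from 0.470 to 0.752). Before adjustment 3 members were under 0.05, as were 895 of the 12565 transcripts. DESeq2 called 0 members, against 0.653% of all transcripts tested. ENSMODT00000037070, ENSMODT00000008502 and ENSMODT00000027014 were called without the 12 h, 800 µM library (edgeR adjusted p = 0.0235, 0.0441 and 0.0230) and from the 24 h libraries alone. These fits called 13.6% and 20.3% of all transcripts tested, so the 3 calls are not particular to the members. They also leave 1 library at 800 µM, or 1 at each dose, whose spread is then assumed to be that of the other groups. At each time the 800 µM library was also the smaller of the pair, so dose and library total cannot be told apart.

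In control blood, 2 of the members were called between 12 and 24 h. These controls also served for the choice of the members, so the comparison is not independent of it. ENSMODT00000014456 rose between 12 and 24 h by a log2 difference of 4.17 (SE 0.736, adjusted p = 0.0273) and ENSMODT00000022153 fell by 2.24 (SE 0.388, adjusted p = 0.0263), in edgeR's test with Benjamini-Hochberg adjustment. That is 2 of 7 members, against 142 of 10940 transcripts or 1.30%. Apart from ENSMODT00000022153, both 24 h controls lay above both 12 h controls in 6 of 7 members, as they did in 32.7% of all transcripts tested. The median log2 difference of the 7 was 1.07, against 0.01 over all. Both 24 h controls had smaller totals than both 12 h controls, so time and library total cannot be told apart here. Both calls were lost when any 1 of the 4 controls or either 12 h PFOA library was left out (adjusted p from 0.0621 to 0.396) and with the replicate block, while 5 members were called when 1 of the 24 h PFOA libraries was left out. Those last fits called 17.0% (without 400 µM) and 17.7% (without 800 µM) of all transcripts tested, against 1.30% with all libraries.

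The size of the PFOA difference at 24 h was set against that at 12 h through an interaction term. The same PFOA and control libraries served for the choice of the members, so this comparison is not independent of it. No member was called (0 of 7, with 0 of 10940 transcripts or 0% called by edgeR with Benjamini-Hochberg adjustment). Before adjustment 2 members and 984 transcripts were under 0.05. DESeq2 called 0 members, against 0.064% of all transcripts tested. The fitted interaction was positive for 5 members, up to 1.58 (SE 0.659) for ENSMODT00000008502. It was negative for ENSMODT00000014456, at -0.32 (SE 0.790), and for ENSMODT00000022153, at -0.81 (SE 0.608). With the replicate block the sign turned for ENSMODT00000014456 (to 0.46) and for ENSMODT00000040011 (from 1.06 to -0.45). Without the 24 h, 400 µM library ENSMODT00000008502, ENSMODT00000002761 and ENSMODT00000027014 were called, with adjusted p of 0.0108, 0.0390 and 0.0152. That fit called 19.3% of all transcripts tested and rests on 1 PFOA library at 24 h, whose spread is assumed to be that of the other groups.

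The untreated time course gives the members in blood that played no part in their choice, in libraries of 51349217 to 336472834 counts. In it the member with the clearest course was ENSMODT00000022153. In fresh blood it stood at 3.84, 4.44 and 4.23 CPM (identifiers A0036, A0039 and A3538 in that order, here and below). At 12 h it stood at 47.9, 47.7 and 37.0 CPM. The rise had a log2 difference of 3.41 (SE 0.557, adjusted p = 0.00322, edgeR with Benjamini-Hochberg adjustment). It was called under all 20 alternatives run for this comparison, with adjusted p up to 0.0182. It was the only member called between 0 and 12 h (1 of 7, against 7.67% of 15524 transcripts).

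After 12 h the 3 series of ENSMODT00000022153 parted. At 24 h they had 27.6, 14.8 and 78.7 CPM, the third being the highest value of all 15 libraries. At 48 h they had 27.5, 8.54 and 29.4 CPM, and at 72 h 10.2, 15.9 and 12.6 CPM. The level at 72 h was still above fresh blood in all 3 (log2 difference 1.63, SE 0.522, adjusted p = 0.0193, edgeR with Benjamini-Hochberg adjustment). It no longer passed when A0036 at 0 h (adjusted p = 0.0546) or A0039 at 72 h (adjusted p = 0.0565) was left out. From 12 to 24 h the level was thus lower in A0036 and A0039 and higher in A3538, whereas the controls of the treatment experiment fell.

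ENSMODT00000014456 had 0 counts in all 3 fresh blood libraries. It had 0, 8 and 0 counts at 12 h, 6, 4 and 0 at 24 h, 20, 14 and 8 at 48 h, and 10, 43 and 34 at 72 h. It was called between 0 and 72 h (adjusted p = 0.00931, edgeR with Benjamini-Hochberg adjustment, and called under all 20 alternatives). A floor of 3 counts per library at 0 h was worth 0.0469 CPM on average. Its mean at 72 h, 0.254 ± 0.146 CPM (SD, n = 3), was 5.41-fold that average floor, and its mean at 48 h, 0.116 ± 0.0464 CPM, 2.47-fold. The 0 h floor was highest in A3538, at 0.0689 CPM, and the 48 h level of A3538, 0.0627 CPM, lay below it. The 24 h controls of the treatment experiment, at 7.36 and 5.08 CPM, were above every library of the time course, but the experiments were scaled separately and this is not a tested difference. Between 0 and 72 h, 2 of 7 members were called, against 49.3% of all transcripts tested. The transcript just outside the set, ENSMODT00000006566, was highest at 72 h in each series, with 75, 73 and 99 counts against 14, 8 and 0 at 0 h.

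The other 5 members had no called change in the untreated time course. ENSMODT00000027014 stood at 168, 115 and 282 CPM in fresh blood and at 70.0, 65.6 and 153 CPM at 12 h, lower in each series. Its level was 70.7 ± 8.31 CPM at 24 h, 82.4 ± 9.28 CPM at 48 h and 91.9 ± 56.5 CPM at 72 h (SD, n = 3). ENSMODT00000002761 was the steadiest, with means of 26.2 ± 4.50, 25.1 ± 4.93, 29.8 ± 7.52, 33.2 ± 3.99 and 36.5 ± 7.27 CPM from 0 to 72 h (SD, n = 3). The order of its means follows time from 12 h on, but neighbouring times overlap. With identifiers as a replicate block, both transcripts were called between 0 and 72 h by edgeR, ENSMODT00000002761 with a log2 difference of 0.48 (adjusted p = 0.0313) and ENSMODT00000027014 with -1.08 (adjusted p = 0.0174). That fit called 52% of all transcripts tested.

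ENSMODT00000040011 was even in fresh blood, at 6.95 ± 0.268 CPM (SD, n = 3), and spread by 72 h to 9.59, 4.45 and 16.9 CPM. ENSMODT00000008502 had a mean of 9.65 ± 4.23 CPM at 0 h and 4.09 ± 1.41 CPM at 48 h (SD, n = 3), its highest and lowest. ENSMODT00000037070 had 86.9, 15.4 and 32.1 CPM at 0 h, the first of which was its highest value in the time course, and means of 15.4 to 21.5 CPM at the later times. Libraries of neighbouring times overlapped in these 3, except for ENSMODT00000008502 at 24 and 48 h. It was lower in each 48 h library than in each 24 h library (log2 difference -0.81, SE 0.469, adjusted p = 0.429, edgeR with Benjamini-Hochberg adjustment). The share of all transcripts separated in this way was not counted. Between 12 and 24 h, 24 and 48 h, and 48 and 72 h, no member was called (0 of 7 each), against 0.206%, 0.0515% and 10.7% of all transcripts. Before adjustment, too, no member was under 0.05 in these 3 steps, against 1107, 2429 and 4208 of 15524 transcripts. DESeq2 called 0 members in each, against 1.64%, 5.65% and 17.1% of all transcripts.

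**Figure D4:**
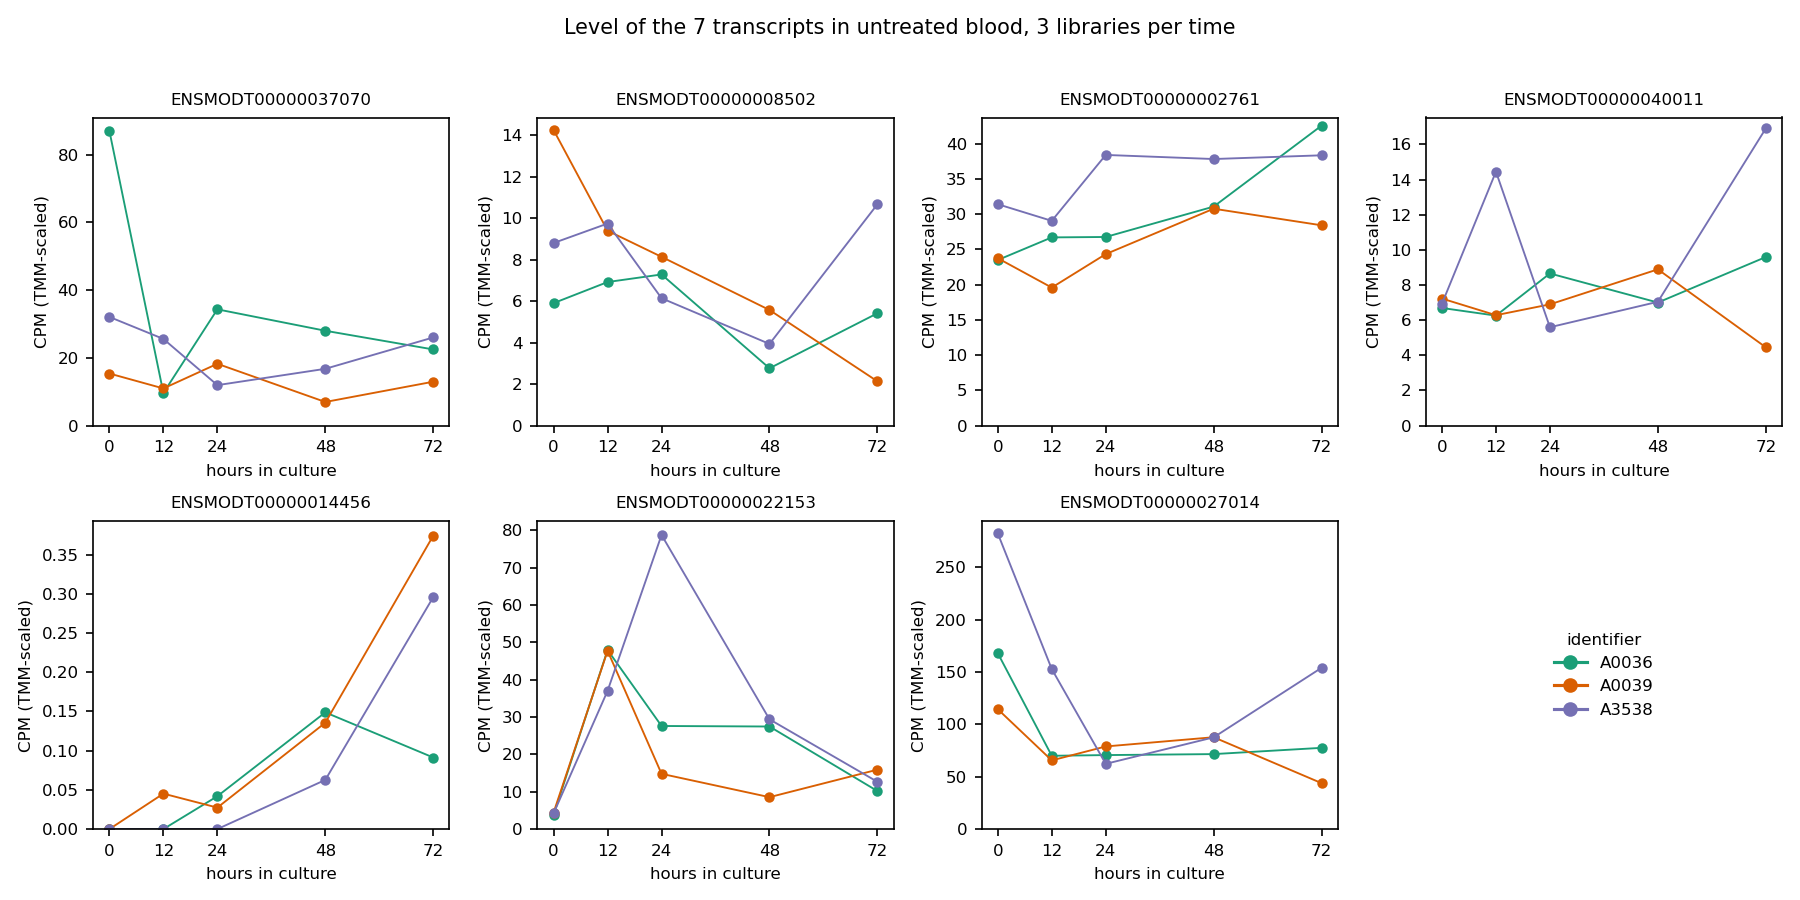
Level of each of the 7 transcripts (TMM-scaled CPM, linear axis from 0) against hours in culture in untreated blood, with 1 line per identifier. ENSMODT00000022153 goes from about 4 CPM at 0 h (3.84 to 4.44) to between 37.0 and 47.9 CPM at 12 h. ENSMODT00000014456 is at 0 in fresh blood and highest at 72 h in A0039 and A3538, but at 48 h in A0036.

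The members moved together in the treatment experiment and not in the time course. Over the 10 treatment libraries, the 15 pairs without ENSMODT00000022153 had Pearson correlations of log2(CPM + 0.05) between 0.835 and 0.990, while its 6 pairs ran from -0.226 to 0.124. These libraries share the division by widely different totals and the choice of members. Over the 15 time course libraries, the 21 pairs ran from -0.594 to 0.562. The count ranges were less extreme in the time course than in the treatment experiment, though still narrow for some members. Time course totals spanned 6.55-fold, and the counts of ENSMODT00000002761 and ENSMODT00000027014 spanned 4.79- and 4.85-fold, against a median of 8.87-fold over all transcripts tested there.

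The pair of transcripts outside the set most like the members' mean profile over the 15 untreated libraries were ENSMODT00000016807 (Pearson r = 0.787) and ENSMODT00000019316 (r = 0.755). The members themselves had r between -0.073 and 0.902 with that mean, the highest being ENSMODT00000040011. Each member is part of that mean, which raises its r, so these values cannot be set against those of the outside pair. In the treatment experiment the 2 outside transcripts had at most 2 and 4 counts in any library and were not tested.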

How the data were processed

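Per the labels' protocols, poly(A) RNA of cultured whole blood was made into strand-specific libraries. Each experiment came as 1 table of whole-number read counts by transcript, deposited without normalization and made with Trimmomatic 0.36, TopHat2 2.1.1, Bowtie2 and bedtools 2.30.0, per the submitters' processing notes. For build, annotation and strand use in counting the entry is: not given in the sources used here. Overlapping or near-identical transcripts are therefore uncertain. Of 22063 features, 4 copies with identical counts were removed. Of the 22049 Ensembl identifiers, 0 matched the reference gene table. Among values of 1 to 12 counts, 71.0% (time course) and 70.9% (treatment) were even numbers. Counts thus often came in pairs, and intervals and floors cover counting error only.

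The deposited counts were tested with edgeR 4.0.16 (R 4.3.3): quasi-likelihood test, TMM, filterByExpr (minimum count 10), Benjamini-Hochberg adjustment over all transcripts tested, called under 0.05. Models used treatment and time (10 libraries), dose within PFOA added to these, treatment by time (8 control and PFOA libraries), and time (15 libraries). All 7 members passed the filter in each. Scripts were tested on simulated data. DESeq2 1.42.0, other scalings and filters, thinning, single times, the replicate block and each library left out were alternatives. Same-numbered time course libraries deviated together between neighbouring times (correlations 0.179 to 0.576), but not between 0 and 72 h (-0.0767 to 0.0727). The labels do not say what the identifiers are.

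The members, the models and the alternatives were chosen with earlier results of these data known. Named transcripts are the members, the next one in the order of the PFOA fit, and the 2 most like the members' mean time course.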

Additional observations from a re-analysis of the deposited data

How the results depend on the processing

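The PFOA differences and the called changes kept their direction under every alternative run, but some uncalled differences did not. For GenX, ENSMODT00000022153 turned to -0.15 with the replicate block and ENSMODT00000040011 (0.48) to -0.033 without GenX R4, its range being -0.033 to 0.98 with 1 library left out. For dose, ENSMODT00000014456 turned to -0.29 after thinning. For the interaction, ENSMODT00000014456 turned to 0.46 and ENSMODT00000040011 to -0.45 with the replicate block, and ENSMODT00000014456 to 0.30 without the 12 h, 800 µM and to 0.080 without the 24 h, 400 µM PFOA library, within a range of -0.90 to 0.30 with 1 library left out. In the time course, member values that changed sign or came to 0 were 5 of 139 for 12 against 0 h, 8 of 139 for 24 against 12 h, 4 of 139 for 48 against 24 h and 5 of 140 for 72 against 48 h. The number of members past the threshold that chose them (7) was 2 with RLE size factors, 0 with the replicate block, 0 after thinning to the smallest total, 1 from 12 h libraries alone, 0 from 24 h libraries alone, and 0 to 7 with 1 library left out. The members' median PFOA log2 difference (2.30) was 1.56 from 12 h libraries alone, 3.09 from 24 h libraries alone and 1.91 to 2.63 with 1 library left out. For GenX, 2 members were called without a low-count filter (ENSMODT00000037070 and ENSMODT00000014456), 1 by DESeq2, and 0 to 1 with 1 library left out. For dose, 3 were called from 24 h libraries alone and 0 to 3 with 1 library left out. For 24 against 12 h in controls (2), 0 were called with the replicate block and 0 after thinning, where ENSMODT00000014456 could not be tested, and 0 to 5 with 1 library left out. The interaction gave 0 to 3 with 1 library left out. For 72 against 0 h (2), 4 were called with the replicate block, 3 by DESeq2, and 1 to 4 with 1 library left out, the 4 being without the 72 h library of A3538, where ENSMODT00000008502 and ENSMODT00000027014 were called lower. Where a library left out leaves 1 in its group, that one is assumed to vary like the other groups. Shares called over all transcripts tested, set against the main models, differed too. For PFOA they were 0.0318% with RLE size factors, 0.00796% with the replicate block and 0.0862% from 12 h libraries alone, against 0.0796%. They were 5.84% by DESeq2 and 3.49% without the low-count filter. For GenX they were 1.07% without the filter and 0.501% by DESeq2, against 0.00796%. For 72 against 0 h they were 52% with the block, 53.5% by DESeq2 and 46.9% without A3538 at 72 h, against 49.3%. Those last calls are thus not particular to the members. The cause of these changes was not tested. The replicate block changed no other count of members called, and the 4 other time course counts kept their value under 20 alternatives each. In the treatment experiment the block rests on numbers that the labels do not explain, and for GenX it leaves only the R3 library to carry the difference. Plain totals in place of TMM moved 55 of 175 single levels by more than an SD. An example is ENSMODT00000037070 at 0 h in A0036, from 86.9 to 45.3 CPM. The SD was taken over libraries of the same time in the time course, and of the same treatment in the treatment experiment. The latter pools times and doses, so it also holds their differences and is not a replicate spread. Depth limits the 24 h, 800 µM PFOA library most: 3 counts there were worth 9.52 CPM, and ENSMODT00000022153 had 8 counts.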
